A study of Mus musculus with 48 samples.

Results

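The RNA of the mouse ileum on the day of birth (day 0) was compared with that at day 2, from the 3 ileum samples labelled day 0 and the 3 labelled day 2, out of 48 samples in the series. The members were chosen by their labels alone, as the columns of the count table named for ileum at these ages. All mice were C57Bl/6J from Jackson, males and females, with no transgene and no treatment named, still with their dam at both ages. Each sample was whole-thickness tissue from the distal 2 cm of bowel that ends at the caecum, homogenised and sequenced as total RNA. The series holds duodenum and ileum at 8 ages from birth to week 4, with 3 samples per group, and the 3 duodenum samples of day 0 and of day 2, from the same strain and setting, serve below for the comparison between regions. Litters usually gave mice of 2 or 3 ages. The labels call the housing standard and germ-free at the same time, so whether these mice carried microbes cannot be settled from them. They do not say whether samples 1 to 3 came from separate mice. The sex-linked genes below show both patterns within each age, so each age held RNA of at least 2 mice, and p-values measure the spread between these samples, part of which may be technical.

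At birth the intestine passes from swallowed amniotic fluid and placental supply to milk, a fat-rich food that also brings cholesterol. Cells that lack sterol activate the transcription factor SREBP-2, which switches on the enzymes that build cholesterol from acetyl-CoA through mevalonate, farnesyl diphosphate and lanosterol. The newborn ileum is also the site where enterocytes swallow whole milk proteins by endocytosis and digest them in lysosomes, and where bile acids are reclaimed and signal through the receptor FXR to the hormone gene Fgf15. Crypts and their Paneth cells, which secrete antimicrobial peptides, form in the mouse only after birth.

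The 6 libraries held 21026015 to 42029626 counts over 24015 to 26773 genes with a count. Mitochondrial genes took 15.9% to 24.2% of counts at day 0 and 13.2% to 17.1% at day 2. Levels are given below as CPM, a gene's count relative to the TMM-scaled library total, always in the order of samples 1, 2 and 3. In a principal component analysis the first component (46.8% of variance) separated the ages, and the second (22.2%) set day 0 sample 1 apart, at 56.1 against -24.7 to 5.36 for the other 5. Xist, the RNA of the inactive X chromosome, stood at 2.04, 1127 and 1736 CPM at day 0 and 1470, 2.62 and 1.55 CPM at day 2, and the Y-linked gene Ddx3y at 45.2, 0.0418 and 0 and 0.0317, 51.3 and 52.8 CPM. So 1 of 3 day 0 samples and 2 of 3 day 2 samples had the male pattern, with no mixture in any of the 6, and 1898 genes were called below with a sex index in the fit against 1665 without. Fabp6 marks the ileum, and Pdx1, a duodenal transcription factor, was at 0.111, 6.53 and 0.666 CPM in the day 0 samples, at 0.349, 0.534 and 0.357 CPM in the day 2 samples and at 2.42, 13 and 25 CPM in the duodenum at day 0. Ileum day 0 sample 2 therefore held more Pdx1 RNA than the other 5 ileum samples. The 15 enterocyte identity genes, such as Vil1, Cdx2 and Epcam, summed to 8483 to 10970 CPM at day 0 and 8797 to 9604 CPM at day 2. The defining muscle genes were low for whole-thickness bowel: Acta2, smooth muscle actin, stood at 14.7, 13.8 and 14.8 CPM at day 0 and 4.92, 10.1 and 3.13 CPM at day 2. Myh11, smooth muscle myosin, stood at 14.5, 31.8 and 34.4 and 3.71, 13.8 and 3.21 CPM.

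Of 16980 genes tested, 1665 (9.81%) differed between the ages at a Benjamini-Hochberg adjusted p under 0.05 in edgeR's quasi-likelihood test, the threshold for every gene described below as called, risen or fallen. Of these, 884 genes (5.21%) were higher at day 2 and 781 (4.60%) were lower. These 2 shares are the background for every count of list members below. In none of the 1665 did the 3 samples of day 0 overlap with the 3 of day 2 in CPM. With 3 samples per age this separation goes with passing the threshold and adds no further evidence. The share of genes without overlap among all genes tested is not given here. More than 2-fold rises numbered 264 and more than 2-fold falls 389. The median log2 fold change over all genes tested was -0.01. Genes that rose had longer transcripts, with a median of 3891 bases, than genes that fell, with 3006, against 3131 for genes not called, and a GC content of 46.1% against 52.5% and 48.8%. The part of length and GC in single results was not tested, and 1345 genes were called with offsets for both, added after seeing the data. The count was 3010 without day 0 sample 1, the sample that stood apart. It was 810 without day 0 sample 3 and 401, 808 and 408 without day 2 samples 1, 2 and 3.

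**Figure D1:**
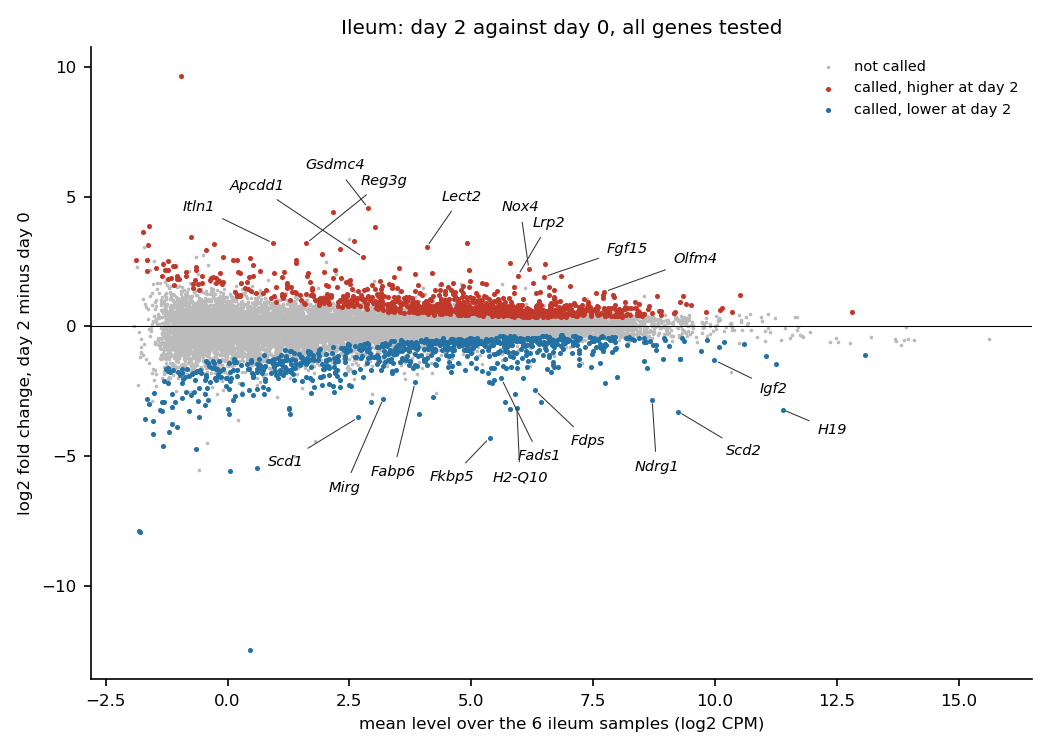
Each point is a gene tested in the ileum. The horizontal axis gives its mean level over the 6 samples (log2 CPM) and the vertical axis its log2 fold change, day 2 minus day 0. Red points are the 884 genes called higher at day 2, blue points the 781 called lower and grey points are not called; H19, Scd2 and Ndrg1 are abundant genes that fell, and Gsdmc4, Reg3g and Lect2 are scarce genes that rose.

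Genes of cholesterol synthesis and uptake mostly fell. Of the 29 members tested, 22 fell and 0 rose, with a median log2 fold change of -1.02, where 4.60% of all genes fell. Fdps, which makes farnesyl diphosphate, was at 240.5, 139.6 and 158 CPM in the day 0 samples and 26.8, 41 and 31 CPM in the day 2 samples. Every day 0 sample lay more than 3 times above the highest day 2 sample. It fell by 2.46 on the log2 scale (SE 0.232, edgeR adjusted p = 0.00118), a 5.50-fold difference.

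Hmgcs1, which makes the HMG-CoA that feeds the pathway, stood at 327, 203 and 198 CPM at day 0 and 105, 152 and 123 CPM at day 2 and fell by 0.95 (SE 0.212, edgeR adjusted p = 0.0292). The fitted change of this entry enzyme was smaller than those of the later steps named here, a difference between genes that was not tested. Mvk, mevalonate kinase, changed by -1.76 and Mvd, mevalonate diphosphate decarboxylase, by -1.59 on the log2 scale. Fdft1 and Sqle, which make squalene and its epoxide, changed by -1.62 and -1.16. Cyp51, the lanosterol demethylase, went from 223, 137 and 166 to 40.3, 63.1 and 55.3 CPM with no overlap and fell by 1.75 (SE 0.211, edgeR adjusted p = 0.00314). In each of these genes day 0 sample 1 held the highest level of the 6 libraries.

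Regulators of the pathway fell too. Srebf2, which encodes SREBP-2, was at 188, 121 and 153 CPM at day 0 and 65.8, 79.5 and 84 CPM at day 2, again without overlap, and fell by 1.02 (SE 0.164, edgeR adjusted p = 0.00760). Insig1, the protein that helps to hold SREBP-2 in the endoplasmic reticulum, went from 297, 196 and 221 to 70.05, 98.9 and 89.8 CPM, with every day 0 sample above every day 2 one (log2 -1.48, SE 0.177, edgeR adjusted p = 0.00238). The sterol transporters of the cell surface were not called. Npc1l1, which takes cholesterol up at the brush border, had a log2 change of 0.23, and the efflux pumps Abcg5 and Abcg8 had 0.14 and 0.08. Abca1, which exports cholesterol to HDL, had -1.51 (edgeR adjusted p = 0.145). In cholesterol synthesis and uptake the count of 22 falls became 8, 13 and 9 without day 2 samples 1, 2 and 3, and 23 without day 0 sample 1. Sqle lost its call without day 0 sample 3 or any 1 of the day 2 samples, Mvd without any 1 of the day 2 samples, and Mvk and Hmgcs1 without day 2 sample 1 or 3.

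The promoters of these enzymes are shown because the members fell together and because SREBP-2 acts through a sterol element beside CCAAT boxes, which bind the factor NF-Y. They come from RefSeq windows of GRCm38.p6, the same assembly as the mm10 named in the submitters' notes, from 250 bases before to 50 after each gene's start. Letters were matched on both strands. Of the genes tested, 11876 of 16827 symbols had a window. The capitals mark the sterol sequence TCACCCCAC in Hmgcs1, at chr13:119690184-119690252 on the plus strand, and CCAAT or its reverse complement ATTGG in the other 3, which lie at chr5:114444066-114444130 (plus strand), chr5:4104698-4104756 (minus strand) and chr8:122443448-122443512 (minus strand).
Hmgcs1: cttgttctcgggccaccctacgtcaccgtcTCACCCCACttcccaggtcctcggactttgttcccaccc
Mvk: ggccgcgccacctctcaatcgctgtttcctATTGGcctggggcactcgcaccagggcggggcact
Cyp51: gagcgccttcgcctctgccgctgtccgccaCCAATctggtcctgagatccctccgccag
Mvd: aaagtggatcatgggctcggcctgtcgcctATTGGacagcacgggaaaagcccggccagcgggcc
CCAAT was present in 19 of the 21 members of cholesterol synthesis and uptake with a window (90.5%), in 42.5% of all genes tested with a window and in 37.4% of all 32851 windows. It was also frequent in some lists whose called members rose. These were the unfolded protein response and ER chaperones, with 13 of 14 members (92.9%), and cell cycle and DNA replication, with 32 of 42 (76.2%). Among called genes it was present in 47.7% of those that rose and 48.5% of those that fell, and the 19 include Npc1l1, Abcg5 and Abcg8, which were not called. The sterol sequence was present in 1 of the 21, Hmgcs1, and in 0.64% of all genes tested. A match is a description of letters and not a bound site.

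Desaturases of fatty acids fell steeply. Scd2, which makes oleate, was abundant at day 0, with 2383, 1445 and 1929 CPM, and stood at 100.5, 340.5 and 159.6 CPM at day 2. The groups were far apart, although day 2 sample 2 kept more than the other 2. It fell by 3.28 (SE 0.481, edgeR adjusted p = 0.0130) and lost its call without day 2 sample 3. Scd1, its neighbour on chromosome 19, went from 12.2, 27.4 and 23.4 to 2.22, 2.18 and 1.19 CPM and fell by 3.50 (SE 0.361, edgeR adjusted p = 0.00164). Fads1, the delta-5 desaturase of polyunsaturated fatty acids, had 95.8, 85.4 and 97.2 CPM at day 0 and 20.2, 23.5 and 26.7 CPM at day 2, tight groups with a 4.00-fold gap (log2 -2.0, SE 0.129, edgeR adjusted p = 1.39e-04). Fads2, the delta-6 desaturase, changed by -1.16 and Srebf1, which encodes the lipogenic SREBP-1, by -0.70, the latter not called without day 0 sample 3, day 2 sample 1 or day 2 sample 2. Fasn, fatty acid synthase, changed by -1.15 and missed the threshold (edgeR adjusted p = 0.0511). In all, 5 of 13 tested members of fatty acid synthesis fell and 0 rose, median -0.70, and 8 fell without day 0 sample 1.

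Genes that pack milk fat rose in a share near that of all genes. Of 21 genes of fat absorption and chylomicron assembly, 1 rose (4.76%) and 0 fell, median -0.06. Of all genes tested 5.21% rose and 4.60% fell. Apob, the scaffold of the chylomicron, was at 5868, 5619 and 5260 CPM at day 0 and 8718, 7859 and 8587 CPM at day 2, a rise of 0.57 (SE 0.135, edgeR adjusted p = 0.0301), lost in 5 of the 6 fits that left out 1 library. Only the fit without day 0 sample 1 kept it. Apoa4, another chylomicron protein, changed by -0.01 and Mttp, which loads the particle, by -0.21, neither called. Of 28 genes of fatty acid oxidation and ketone synthesis 1 rose (3.57%), also near the share of all genes, and 0 fell. The gene was Vnn1, a pantetheinase, with 8.27, 9.58 and 8.14 CPM at day 0 and 15.2, 19.97 and 16.3 CPM at day 2 (log2 0.97).

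Of 10 genes of bile acid transport and signalling 9 were tested, 2 rose and 3 fell. Of the uptake proteins, Fabp6, the ileal bile acid binding protein, went from 22, 39.99 and 25 to 7.08, 5.83 and 6.98 CPM, 3 low and tight values beside 3 higher ones (log2 -2.14, SE 0.234, edgeR adjusted p = 0.00153). Slc10a2, the apical bile acid transporter, was at 5.67, 3.35 and 2.45 CPM and then at 0.603, 1.02 and 0.555 CPM (log2 -2.41, edgeR adjusted p = 0.00797). The 2 members that rose, Fgf15 and Nr0b2, belong to a feedback loop, while the rest of the list fell or was not called. Fgf15, the ileal hormone that restrains bile acid synthesis in the liver, stood at 45, 25.5 and 65.8 CPM at day 0 and 153, 189 and 178 CPM at day 2 and rose by 1.91 (SE 0.315, edgeR adjusted p = 0.0146). Its groups did not overlap, but the call was lost without day 2 sample 3. Nr0b2, a repressor in the same loop, had 1.22, 1.92 and 1.26 CPM at day 0 and 5.68, 5.16 and 6.15 CPM at day 2, a rise of 1.94 (edgeR adjusted p = 0.00317). Nr1h4, which encodes FXR, fell by 0.51 (edgeR adjusted p = 0.0147), lost without day 2 sample 1 or 3. The basolateral exporters Slc51a and Slc51b had log2 changes of -0.02 and -0.38, not called.

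Of the 7 genes for endocytic uptake of milk protein, 2 rose and 0 fell, median 0.41, with 3 rises without day 0 sample 1 and 1 rise without any other 1 of the 6 samples. Lrp2, the giant endocytic receptor megalin, was at 35.5, 34.2 and 21.1 CPM at day 0 and 101, 139 and 115 CPM at day 2, all 3 day 2 samples far above the day 0 ones. It rose by 1.96 (SE 0.204, edgeR adjusted p = 0.00153), a 3.88-fold difference. The partners of the receptor did not rise with it: Cubn, Amn and Dab2 had log2 changes of 0.16, -0.34 and 0.22, not called. Among 44 lysosomal genes 3 rose and 2 fell, close to the shares of all genes, with 8 rises without day 0 sample 1 and 0 falls without day 0 sample 3 or any 1 of the day 2 samples. The protease Ctsl was the clearest, with 1003, 729.6 and 1016 CPM at day 0 and 1931, 2638 and 1897 CPM at day 2 (log2 1.22).

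Single genes of vitamin, iron and sugar handling also changed. Lrat, which esterifies the retinol taken from milk, stood at 59.2, 60.02 and 44.1 CPM at day 0 and 154, 154 and 164 CPM at day 2, 3 almost equal values, and rose by 1.52 (SE 0.130, edgeR adjusted p = 6.10e-04). Slc11a2, the iron importer DMT1, rose by 1.20 and Tfrc, the transferrin receptor, by 1.31 on the log2 scale, the latter not called without day 2 sample 1 or 3. G6pc, the last enzyme of glucose production, rose by 1.69 (edgeR adjusted p = 0.00646). At the brush border, Mgam, maltase-glucoamylase, fell by 0.62 and Ggt1, which begins glutathione breakdown, by 2.13. The call of Mgam held only without day 0 sample 1. The brush border digestion list as a whole had 2 rises and 2 falls among 17 genes, with 0 or 1 rises and 1 fall without any 1 of the other 5 libraries. Of 14 amino acid transporters edgeR called 0 and DESeq2 0, and 3 had an unadjusted p under 0.05.

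**Figure D2:**
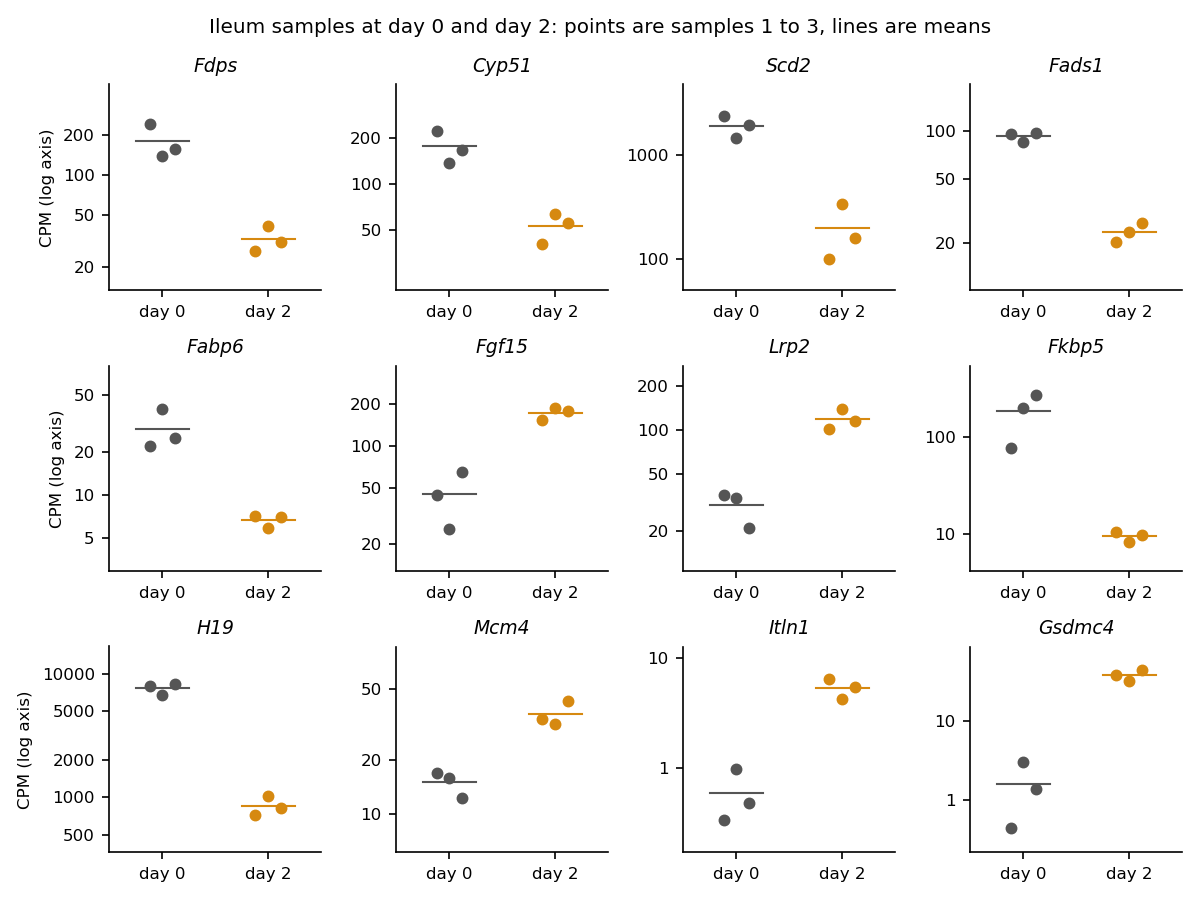
Each panel shows the level of 1 gene in the ileum, in CPM on a log axis, with points for samples 1 to 3 of day 0 (grey) and of day 2 (orange) and lines for the means. The 12 genes shown were all called, and the 2 ages do not overlap in them, which holds for all 1665 called genes. Fads1 and H19 have the tightest groups, and Fkbp5 and Gsdmc4 the widest spread at day 0.

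Some glucocorticoid targets were high on the day of birth. Fkbp5, a chaperone of the receptor that glucocorticoids strongly induce, was at 77.6, 201 and 274 CPM at day 0 and 10.6, 8.23 and 9.80 CPM at day 2, a 19.6-fold fall (log2 -4.29, SE 0.505, edgeR adjusted p = 0.00744). Day 0 varied more than 3-fold, with sample 1 lowest, while day 2 was tight, and the call was lost without day 2 sample 3. Sgk1, a kinase of salt transport, went from 345, 400.3 and 703 to 122, 134 and 128 CPM and fell by 1.93 (edgeR adjusted p = 0.00494). Tsc22d3, also called GILZ, fell by 1.63 (edgeR adjusted p = 0.00548). Per1 missed the threshold at a log2 change of -1.10 (edgeR adjusted p = 0.0511), and the receptor gene Nr3c1 had 0.37. Of 13 members tested of glucocorticoid response and steroid synthesis, 3 fell and 0 rose, median -0.34, and 6 fell without day 0 sample 1.

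Several genes that low oxygen induces fell as well. Ndrg1, one of the most responsive of them, stood at 614, 1257 and 1372 CPM at day 0 and 158, 145 and 163 CPM at day 2 (log2 -2.82, SE 0.288, edgeR adjusted p = 0.00173). Slc2a1, the glucose transporter GLUT1, fell by 0.89, and Higd1a and Pgk1 changed by -1.31 and -0.83, of which Higd1a held its call only without day 0 sample 1 or day 0 sample 3. Ankrd37 went the other way with a rise of 1.88, lost without day 2 sample 1 or 3. The hypoxia response and glycolysis list thus had 7 falls and 1 rise among 22 genes, median -0.34, with 3 and 4 falls without day 2 samples 1 and 3. Hmox1, the haem-degrading enzyme, was at 121, 95.2 and 206 CPM and then at 23.5, 25.6 and 21.8 CPM, a log2 change of -2.60 (SE 0.279, edgeR adjusted p = 0.00262). It is also listed among the 12 NRF2 targets, of which 3 fell and 0 rose, with 1 fall without day 0 sample 3, day 2 sample 1 or day 2 sample 3.

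Several protein-folding genes rose. Hspa5, the main chaperone of the endoplasmic reticulum, had 584, 598 and 389.9 CPM at day 0 and 965, 932 and 883 CPM at day 2, with sample 3 lowest at day 0 (log2 0.81, SE 0.163, edgeR adjusted p = 0.0173). With Creld2, Sdf2l1, Hsp90b1 and Dnajc3 it made 5 rises and 0 falls among 16 genes of the unfolded protein response and ER chaperones, median 0.38. That count was 9, 3 and 3 without day 0 samples 1, 2 and 3 and 0, 1 and 0 without day 2 samples 1, 2 and 3. Of 14 genes of heat shock and cold response 5 rose, among them the cytosolic chaperones Hspa8 (log2 0.71), Hsph1 (0.89) and Hsp90aa1 (0.73), and 2 rose without day 2 sample 1 or 3. Hspa8 lost its call in both of those fits, and Hspa5 without any 1 of the day 2 samples. The member that fell was Cirbp, an RNA-binding protein that cold induces (log2 -0.91, edgeR adjusted p = 0.00576). The ATF4 stress response had 5 falls and 0 rises among 18 genes, led by Vldlr (-1.80) and Stc2 (-1.32) and with Asns, asparagine synthetase, at -0.67. It kept 1 to 3 falls without day 0 sample 2 or 3 or any 1 of the day 2 samples.

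Imprinted growth genes, which act in the fetus and are expressed from a single parental allele, fell in 8 of 18 cases with 0 rises, median -1.11. H19, the noncoding RNA on chromosome 7, was among the most abundant transcripts of the newborn ileum, with 8006, 6752 and 8375 CPM, and stood at 716, 1017 and 815 CPM at day 2. It fell 9.18-fold (log2 -3.20, SE 0.181, edgeR adjusted p = 1.04e-04) and the call held in each fit that left out 1 library. Its neighbour Igf2, the fetal growth factor, went from 1683, 1421 and 1444 to 558, 752 and 557 CPM, a smaller log2 change of -1.30 (edgeR adjusted p = 0.00174). Of the noncoding RNAs in the Dlk1 region of chromosome 12, Mirg went from 26, 19.3 and 22.3 to 2.76, 3.83 and 3.41 CPM (log2 -2.78), Meg3 changed by -1.42 and Rian by -1.34. The cell cycle inhibitor Cdkn1c changed by -1.58 and Grb10, an inhibitor of insulin and IGF signalling, by -0.75. The count was 5 falls without day 0 sample 2, day 2 sample 1 or day 2 sample 3. Rian was not called in those 3 fits or without day 0 sample 1, and Grb10 not in those 3 or without day 2 sample 2.

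Some genes of other cell types fell beside these. The haemoglobin genes, whose near-identical copies share reads, fell with Hba-a1 at 55.6, 206 and 169.6 CPM at day 0 and 18.7, 17.8 and 21.4 CPM at day 2 (log2 -2.91, edgeR adjusted p = 0.0217). In 20 genes of red blood cells, of which 13 were tested, 7 fell and 0 rose, and the list summed to 320.8, 949 and 832 CPM at day 0 and 185, 159 and 186 CPM at day 2. The call of Hba-a1 was lost and the count was 1 without day 0 sample 3 or any 1 of the day 2 samples. Of 10 tested genes of hepatocytes, some of which the gut also makes, 5 fell, or 2 without day 0 sample 3, day 2 sample 1 or day 2 sample 3, and the list summed to 231 to 357 CPM at day 0 and 212 to 251 CPM at day 2. Enough counts at either age pass the filter on low counts, so scarce genes of both lists could enter through day 0 alone. This favours falls in these shares. H2-Q10, a secreted MHC class I protein best known from liver, went from 198, 130.2 and 189 to 17.2, 23.8 and 19 CPM, a log2 change of -3.13 (SE 0.191, edgeR adjusted p = 1.39e-04). In bulk tissue, fewer cells of a type and less RNA per cell cannot be told apart. Of 82 cytosolic ribosomal proteins, which have many pseudogenes, 23 fell and 0 rose with a median of -0.37. That count was 11 without day 0 sample 2 and 2, 4 and 2 without day 2 samples 1, 2 and 3. Of 13 mitochondrially encoded mRNAs edgeR called 0, DESeq2 called 5 falls and 7 had an unadjusted p under 0.05. They summed to 141100 to 225200 CPM at day 0 and 113700 to 151400 CPM at day 2.

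Many DNA replication genes rose. Of 52 genes of cell cycle and DNA replication 19 rose and 0 fell, median 0.65, where 5.21% of all genes rose. Mcm4, a subunit of the ring helicase that opens replication origins, was at 17.1, 15.8 and 12.3 CPM at day 0 and 34, 32.1 and 43.1 CPM at day 2, the lowest day 2 sample well above the highest day 0 one. It rose by 1.26 (SE 0.169, edgeR adjusted p = 0.00345). Mcm3, another subunit, went from 11.1, 8.20 and 5.95 to 25.9, 17.6 and 32.1 CPM (log2 1.58), and Mcm5, Mcm6 and Mcm7 rose by 1.23, 1.05 and 0.68. Gins1, which joins the same helicase, rose by 1.53 and Top2a, the topoisomerase of mitotic chromosomes, by 1.20. Mki67, the usual marker of cycling cells, had a log2 change of 0.84 and missed the threshold (edgeR adjusted p = 0.109). For cell cycle and DNA replication the 19 rises became 10 and 8 without day 0 samples 2 and 3 and 3 and 2 without day 2 samples 1 and 3. The calls of Mcm5, Mcm7 and Top2a were lost in each of those 4 fits and that of Mcm6 also without day 2 sample 2. Mcm3 lost its call without day 2 sample 1, Gins1 without day 2 sample 3, and Mcm4 kept its call in every such fit.

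Promoter windows of 3 helicase subunits are shown because they hold a sequence bound by E2F, the factor that opens S phase. The capitals mark TTTGGCGC or TTTCCCGC on either strand (GCGCCAAA and GCGGGAAA are the reverse complements). Mcm5 lies at chr8:75109330-75109397 (plus strand), Mcm6 at chr1:128359778-128359845 (minus strand) and Mcm7 at chr5:138172011-138172078 (minus strand), all from RefSeq on GRCm38.p6.
Mcm5: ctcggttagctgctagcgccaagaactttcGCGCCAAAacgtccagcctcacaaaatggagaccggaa
Mcm6: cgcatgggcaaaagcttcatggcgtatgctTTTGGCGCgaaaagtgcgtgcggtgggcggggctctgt
Mcm7: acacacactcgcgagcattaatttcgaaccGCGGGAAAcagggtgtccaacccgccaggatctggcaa
These letters were present in 7 of 42 members of cell cycle and DNA replication with a window (16.7%), against 3.11% of all genes tested. The 7 include Mcm3 and the helicase subunits shown, but not Mcm4, Gins1 or Top2a, which also rose. Whether Mcm4 and Gins1 had a window is not given here. They were present in 47 of 660 genes that rose (7.12%) and in 9 of 583 that fell (1.54%). The cell cycle homology region TTTGAA was present in 20 of the 42 (47.6%), against 15.3% of all genes tested.

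Some crypt genes rose with replication genes. Olfm4, a secreted glycoprotein of crypt base cells, stood at 99.2, 150.4 and 135 CPM at day 0 and 292, 289 and 399 CPM at day 2, with no overlap, and rose by 1.33 (SE 0.188, edgeR adjusted p = 0.00512). Ascl2, the Wnt-driven transcription factor of stem cells, went from 0.594, 0.293 and 0.285 to 1.27, 1.29 and 1.75 CPM (log2 1.87, edgeR adjusted p = 0.0203), and Sox9 and Ephb2 rose by 0.63 and 0.68. Lgr5, the stem cell receptor, had a log2 change of 0.60 and was not called (edgeR adjusted p = 0.0777). In all 4 of 17 genes of crypt stem and progenitor cells rose and 0 fell. That count was 2, 1, 1, 2 and 1 without day 0 samples 2 and 3 and day 2 samples 1, 2 and 3, and Olfm4 kept its call in all 6 of these fits. Of 5 tested genes tied to fetal-type epithelium 3 fell, Ly6a by 1.79, Il33 by 1.69 and Anxa1 by 0.98. All 3 lost their calls without day 2 sample 1 or 3, Ly6a also without day 0 sample 2 or 3 or day 2 sample 2, and Anxa1 also without day 0 sample 2 or day 2 sample 2. Scarce genes of this list too could pass the filter on low counts through their day 0 level alone, which favours falls.

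Most Paneth cell genes tested rose, some of them from very low levels. Of 13 genes listed 7 passed the filter on low counts, and 6 of those rose. Enough counts in the 3 samples of either age pass that filter. Scarce genes could thus enter through their day 2 level alone, which favours rises in this share. The list summed to 87.3, 135.1 and 136.1 CPM at day 0 and 394.5, 263 and 240 CPM at day 2. Defa24, an alpha-defensin, made up most of it, with 43.9, 70.2 and 69.7 CPM at day 0 and 215, 148 and 134 CPM at day 2 (log2 1.42, SE 0.234, edgeR adjusted p = 0.0114). Defensin genes are near copies of each other and may share reads. Itln1, intelectin, which binds microbial sugars, went from 0.334, 0.962 and 0.476 to 6.44, 4.27 and 5.51 CPM, a 9.22-fold rise (log2 3.21, SE 0.381, edgeR adjusted p = 0.00184). Lyz1, the Paneth lysozyme, was at 1.33, 4.18 and 3.28 and then at 13.1, 6.98 and 9.20 CPM (log2 1.72, edgeR adjusted p = 0.0345), lost without day 0 sample 3, day 2 sample 1 or day 2 sample 3. Mmp7, which activates the defensins, rose by 0.93, lost without day 0 sample 2 or 3 or day 2 sample 1 or 2. The count of 6 for Paneth cells was 3 without day 0 sample 3 or day 2 sample 1.

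Some other defence genes of the epithelium rose with them. Reg3g, a C-type lectin that kills Gram-positive bacteria, was at 1.04, 1.13 and 0.738 CPM at day 0 and 14.1, 5.83 and 6.70 CPM at day 2, every day 2 sample above every day 0 one and sample 1 highest (log2 3.20, SE 0.384, edgeR adjusted p = 0.00233). Its relative Reg3b had a log2 change of 1.23 and was not called (edgeR adjusted p = 0.144). Ang4, an angiogenin secreted by Paneth and goblet cells, rose by 2.05, Reg4 by 0.97 and Lypd8 by 0.56, the last not called without day 0 sample 3 or any 1 of the day 2 samples. Of 17 mucosal antimicrobial and acute phase genes 10 passed the same filter on low counts, 4 rose and 0 fell. Of 43 interferon-stimulated genes 1 rose (2.33%, against 5.21% of all genes) and 0 fell. The 1 was the nucleic acid sensor Zbp1 (log2 0.94), kept only without day 0 sample 1.

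The 3 largest rises among the genes named by rank were in a gasdermin cluster of chromosome 15, whose copies are similar in sequence and may share reads. Gasdermins are pore-forming proteins. Gsdmc4 was at 0.445, 3.01 and 1.38 CPM at day 0 and 37.7, 31.9 and 42.9 CPM at day 2, a 23.5-fold rise (log2 4.55, SE 0.539, edgeR adjusted p = 0.00568). Gsdmc2 went from 1.45, 2.89 and 1.81 to 33.6, 21.8 and 33 CPM and Gsdmc3 from 0.519, 1.67 and 0.690 to 22.8, 15.4 and 21 CPM, log2 rises of 3.85 and 4.39. Day 0 sample 2 was the highest newborn value for all 3 genes.

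**Figure D3:**
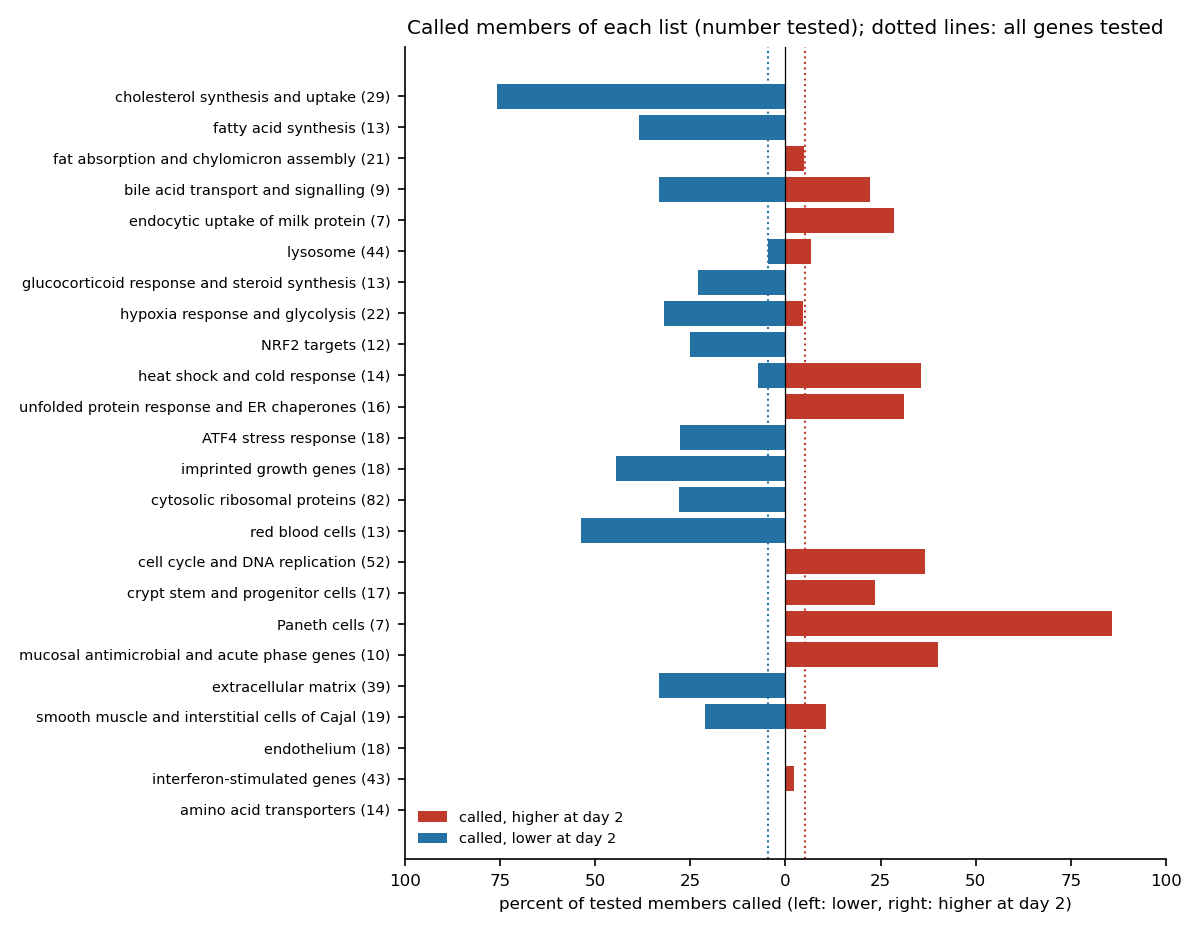
Bars give the percent of tested members of each gene list that were called, to the left for genes lower at day 2 and to the right for genes higher at day 2, with the number tested after each name. Dotted lines mark the same shares over all genes tested, 4.60% and 5.21%. Cholesterol synthesis reaches furthest left, with 22 of 29, and Paneth cells furthest right, with 6 of the 7 tested of 13. Scarce genes could pass the filter on low counts through their day 2 level alone, which favours rises, or through their day 0 level alone, which favours falls.

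Matrix genes were lower in sum at day 2. Of 39 genes of the extracellular matrix 13 fell and 0 rose, median -0.96, and the list summed to 799.5, 1139 and 1659 CPM at day 0 and 595, 757 and 474 CPM at day 2, without overlap. Mfap4 and Mfap2, proteins of elastic microfibrils, changed by -2.46 and -2.29, Col12a1 by -1.69 and Col6a2 by -1.57. Col1a1, the main fibrillar collagen, had -1.04 and was not called (edgeR adjusted p = 0.131). The extracellular matrix count was 21, 8 and 5 without day 0 samples 1, 2 and 3, and 1 and 2 without day 2 samples 1 and 3. Those last 2 fits also ended the calls of Mfap2 and Col6a2, that without day 2 sample 1 ended that of Mfap4, and that without day 0 sample 3 that of Mfap2. In smooth muscle and interstitial cells of Cajal 4 of 19 genes fell and 2 rose, median -1.02, with Cnn1, calponin, at -2.60 and Des, desmin, at -1.83. Mylk, myosin light chain kinase, and Tpm1, a tropomyosin, rose by 1.13 and 0.40, and Tpm1 held its call in 1 of the 6 fits with a sample left out, that without day 0 sample 1. The list summed to 511, 546 and 519 CPM at day 0 and 649.7, 754 and 626 CPM at day 2, higher without overlap, while 16 of the 19 genes had a negative change. Mylk and Tpm1 made up most of that sum, Mylk at 175, 177 and 118 and then 344.5, 368 and 326.5 CPM and Tpm1 at 178.5, 177 and 176 and then 224, 256 and 228 CPM. The count of 4 falls was 7 and 9 without day 0 sample 1 and day 2 sample 2 and 1 without day 2 sample 1 or 3. Cnn1 was not called without day 0 sample 2 or 3 or day 2 sample 1 or 3. Of 18 genes of the endothelium, median -1.08, edgeR called 0, DESeq2 called 4 falls and 5 had an unadjusted p under 0.05, and 12 fell without day 0 sample 1. The list summed to 114.7, 333 and 441 CPM at day 0 and 190.9, 166 and 92.3 CPM at day 2. The matrix and endothelium sums differ between the libraries of day 0 as much as between the ages, and the part that the share of wall tissue in each sample had in other results was not tested.

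Of 11 goblet cell genes 1 rose (9.09%) and 3 fell (27.3%), median -0.25, where 5.21% of all genes rose and 4.60% fell. Muc2, the gel-forming mucin of goblet cells, rose by 0.86, with 328, 504 and 610 CPM at day 0 and 893, 908 and 853 CPM at day 2, lost without day 0 sample 2 or any 1 of the day 2 samples. Zg16, another goblet product, went from 5.34, 14.7 and 14.1 to 3.46, 1.11 and 2.18 CPM, a log2 change of -2.33, lost without day 0 sample 2 or 3 or day 2 sample 2 or 3. Klk1, a kallikrein, and Spdef, a transcription factor of goblet cells, changed by -1.07 and -0.70. Klk1 kept its call in all 6 fits with a sample left out and Spdef in that without day 0 sample 1. The goblet count was 0 rises without day 0 sample 2 or any 1 of the day 2 samples, 2 falls without day 2 sample 1, and 1 fall without day 0 sample 2 or 3 or day 2 sample 2 or 3. Of 23 enteroendocrine cell genes 3 fell and 0 rose. The hormone genes Ghrl, ghrelin, and Sct, secretin, changed by -1.25 and -1.12 and the granule protein Scg2 by -1.21 on the log2 scale. Ghrl lost its call without day 0 sample 3, day 2 sample 2 or day 2 sample 3. Ptprc, which encodes CD45 of all white blood cells, stood at 3.12, 3.93 and 5.19 CPM and then at 10.2, 9.07 and 7.50 CPM (log2 1.10, edgeR adjusted p = 0.0205). Among the fits that each left out 1 sample, the call held without day 0 sample 1 or 3 and was lost in the other 4. The macrophage list summed to 226 to 288 CPM at day 0 and 345.5 to 440 CPM at day 2, higher without overlap. Of its 17 genes 2 rose and 0 fell, but 13 had a negative change and the median was -0.32. The 2 that rose, Ctss (log2 0.76), the protease cathepsin S, and Csf1r (0.51), a receptor of macrophage growth factors, were the most abundant of the list. Both were called in the fit without day 0 sample 1, with 3 rises and 3 falls in the list, and edgeR called 0 without any other 1 of the 6 samples.

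The remaining genes were named for the size or the p-value of their change, a choice that favours genes with little spread within an age. Lect2, a secreted chemotactic protein, was at 6.05, 6.27 and 4.40 CPM at day 0 and 41.1, 51.6 and 47.5 CPM at day 2 (log2 3.06, SE 0.173, edgeR adjusted p = 1.04e-04). Apcdd1, a membrane inhibitor of Wnt signals, went from 2.75, 2.55 and 2.33 to 16.5, 15.6 and 16.7 CPM (log2 2.67, SE 0.161, edgeR adjusted p = 1.04e-04). Both kept their calls in each fit that left out 1 library. Nox4, an enzyme that makes hydrogen peroxide, rose from 23.1, 40.7 and 33.5 to 165, 153 and 134 CPM (log2 2.20, edgeR adjusted p = 9.21e-04). Paqr9 rose by 2.40, Apol7c by 3.0, Cnpy1 by 2.56 and Cttnbp2 by 2.25 on the log2 scale. Among the falls, Eif4ebp3, a repressor of cap-dependent translation, went from 6.27, 5.65 and 8.16 to 0.984, 0.756 and 0.476 CPM (log2 -3.18). Plekhd1 fell by 3.15, Col6a5 by 3.38 and Alpk3 by 2.91, the last not called without day 2 sample 3.

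The duodenum of the same ages was used to ask which of these changes differed by region. In a fit of the 12 samples of both regions, 2978 of 18444 genes (16.1%) were called between day 0 and day 2 in the duodenum. The same fit called 3136 genes in the ileum, against 1665 in the fit of the ileum samples alone. The difference between the 2 changes was called for 354 genes (1.92%) by edgeR's test of the interaction. That fit did not pair the regions, and 1078 were called with samples of the same age and number as a block. Xist and Ddx3y stood together in day 0 duodenum samples 2 and 3, at 4.19, 744 and 813 and 66.5, 21.1 and 25 CPM over samples 1 to 3, so these 2 libraries held RNA of both sexes. The ileum libraries of that age and those numbers had the female pattern. The block thus joined pairs that did not hold RNA of the same mice alone. Without duodenum day 2 sample 3 edgeR called 0 genes and 2707 had an unadjusted p under 0.05, while DESeq2 called 1352 with all 12 samples, so the edgeR call of each difference below, at the adjusted threshold, rests on that sample. The fitted differences themselves moved little without it, as for Lrp2 with 3.07 (edgeR adjusted p = 0.0628) against 3.09 and Scd2 with 2.36 (edgeR adjusted p = 0.152) against 2.39. The count was 160 and 645 without duodenum day 0 samples 1 and 3, 32 without duodenum day 0 sample 2, and 35 and 57 without duodenum day 2 samples 1 and 2. It was 707 and 160 without ileum day 0 samples 2 and 3, 552 without ileum day 0 sample 1, and 67, 90 and 41 without ileum day 2 samples 1, 2 and 3.

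Lrp2 had fitted changes in opposite directions. In the duodenum it was at 32.3, 26.1 and 14.8 CPM at day 0 and 8.77, 13.6 and 10.7 CPM at day 2, so it was lower there in all 3 day 2 samples, where the ileum had risen. The duodenal groups lay close, with 14.8 CPM at day 0 beside 13.6 CPM at day 2. Whether the duodenal change alone was called is not given here. The interaction, ileum minus duodenum, was 3.09 (SE 0.406, edgeR adjusted p = 0.0146). Insig1, which fell in the ileum, had a duodenal log2 change of -0.22, not called, and an interaction of -1.26 (edgeR adjusted p = 0.0455). Its duodenal levels were 107, 167 and 165 CPM at day 0 and 147, 115 and 115 CPM at day 2, which overlap. Fdps changed by -1.37 in the duodenum and its interaction was not called (edgeR adjusted p = 0.0968). Scd2 fell further in the duodenum, from 567, 776 and 666 to 14.2, 12.6 and 12.8 CPM (log2 -5.66, interaction 2.39, edgeR adjusted p = 0.0491). Fads1 fell further in the ileum (interaction -1.18, edgeR adjusted p = 0.0146), and Mgam fell less there (interaction 1.07, edgeR adjusted p = 0.0150). Nox4 was at 75.5, 68.8 and 51.6 and 96.8, 95.6 and 75.9 CPM in the duodenum (interaction 1.75, edgeR adjusted p = 0.0188). Fabp6 was close to absent from the duodenum at day 2, at 0, 0.0616 and 0.0202 CPM after 4.75, 4.65 and 1.55 CPM at day 0. Fkbp5 had an interaction of -0.06 (SE 0.691, edgeR adjusted p = 0.979). Its duodenal levels were 86, 214 and 286 CPM at day 0 and 9.29, 10.8 and 10.9 CPM at day 2, and at day 0 sample 1 was lowest and sample 3 highest in both regions.

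**Figure D4:**
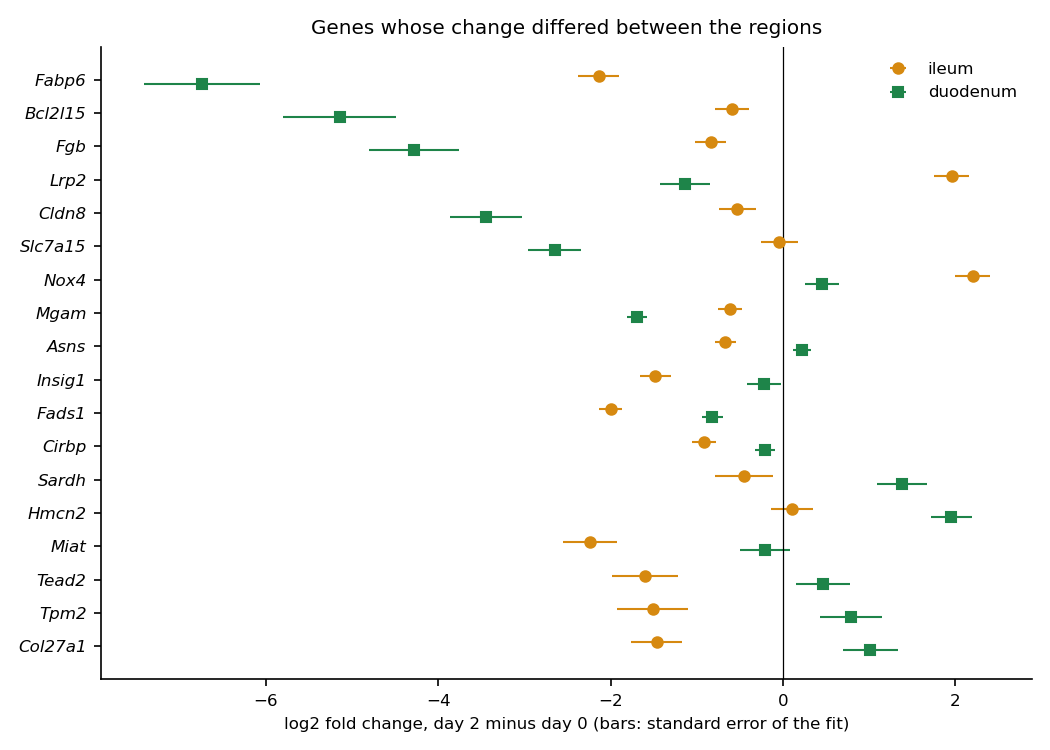
Points give the log2 fold change, day 2 minus day 0, in the ileum (circles) and the duodenum (squares) for 18 genes whose change differed between the regions in the interaction test, with bars for the standard error of the fit. Lrp2 lies right of 0 in the ileum and left of 0 in the duodenum, and Insig1 lies at -0.22 in the duodenum and at -1.48 in the ileum; the duodenal value of Fabp6 rests on levels near 0 at day 2.

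The later ages show which of the changes lasted, as levels with no test. Day 6 sample 3 of the ileum had Scd2 at 2.13 CPM, Lrp2 at 0.597 CPM, Fabp6 at 0 and Olfm4 at 5246 CPM, against its label, and is left out of the ranges here. H19 went on falling, with mean ± SD (n = 3) of 849 ± 154 CPM at day 2, 67 ± 4.43 at day 8, 26.4 ± 5.80 at week 2 and 0.562 ± 0.161 at week 4. Fdps never returned to its day 0 level of 179 ± 53.8 CPM and was at 38.4 ± 5.07 CPM at day 8 and 60.3 ± 12.5 CPM at week 4. Scd2 stayed low too, at 295 ± 122 CPM at week 2. Olfm4 went on rising to 1517 ± 166 CPM at day 8, and Defa24 to 754 ± 93.9 CPM at week 4.

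Other changes turned back. Fkbp5 was at 6.71 ± 0.891 CPM at day 8, at 105 ± 44.3 CPM at week 3 and at 10.8 ± 3.58 CPM at week 4, so its high level of birth was seen again at 1 age. Fabp6 varied from age to age, with 16.1, 200.3 and 134 CPM at day 4 and 1.77, 8.23 and 4.58 CPM at week 2, and reached 828, 1049 and 879.5 CPM at week 3. Slc10a2 stayed at or below 2.15 ± 1.08 CPM until week 2 and was at 354 ± 63.7 CPM at week 3. Lrp2, which had risen to 118 ± 19.1 CPM at day 2, was at 34.8 ± 4.60 CPM at week 2 and 1.11 ± 1.13 CPM at week 3, and Lect2 and Lrat were likewise low at week 4, at 0.401 ± 0.296 and 9.90 ± 6.44 CPM. Reg3g was at 11.1 ± 5.24 CPM at day 4, at 3.71 ± 0.994 CPM at day 8 and at 6362, 9101 and 6082 CPM at week 4.

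**Figure D5:**
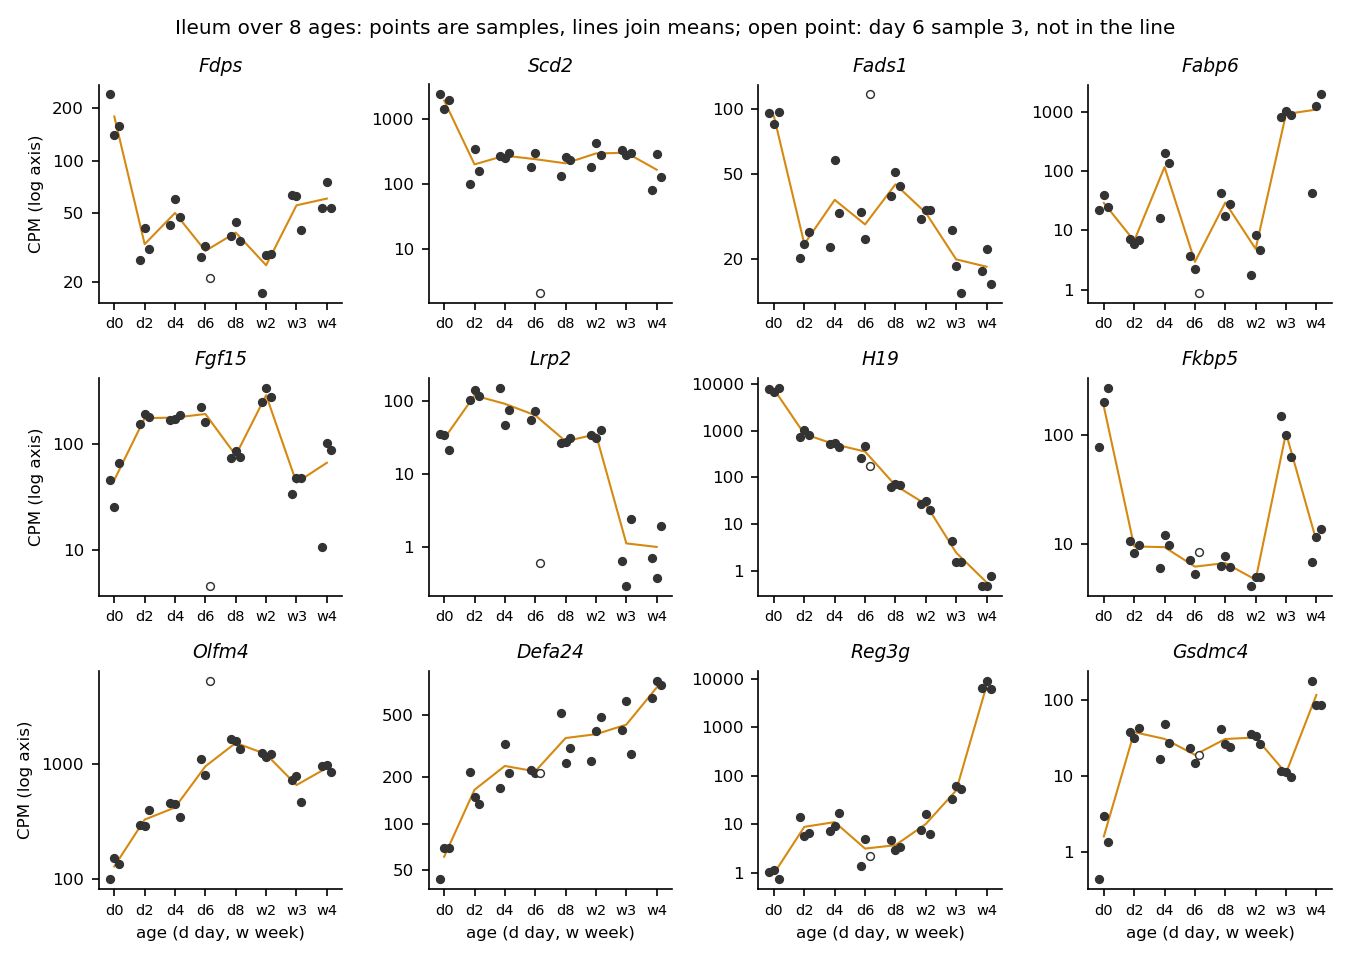
Each panel gives the level of 1 gene in the ileum over 8 ages, in CPM on a log axis, with a point per sample and a line through the means. The open point is day 6 sample 3, which goes against its label and is not in the line; in the Fabp6 panel its value of 0 is drawn at the foot of the axis. H19 falls at every age, Fkbp5 has another peak at week 3, and Reg3g is highest at week 4.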

How the data were processed

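Estimated counts per gene for 48 samples were deposited by the authors as a tximport table, with STAR 2.6.1d, Salmon 0.14.2, DESeq2 1.30.1 and the build mm10 named in the submitters' processing notes without roles. The authors also deposited normalized signal tables, which are the same estimated counts divided by 1 factor per sample and which hold no day 4 samples and no day 6 sample 3. Gene symbols came from those tables, and 51106 of 54532 identifiers had one. Whether counting used the strand is not given in the sources used here.

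Estimated counts were rounded to whole numbers and tested with edgeR 4.0.16 in R 4.3.3 (quasi-likelihood, TMM scaling, filterByExpr, no covariate) on the 6 ileum samples. Adjusted p-values are Benjamini-Hochberg over all 16980 genes tested, with 4839 at an unadjusted p under 0.05. The difference between regions was fitted on 12 samples. The procedure was run on counts simulated with the same spread for every gene and no outlying library, a simpler setting than these data. The outcome is not reported here and does not cover the dependence on single libraries. Printed CPM use TMM factors over all 48 samples. Precision is limited by 3 samples per group.

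Named genes were the 12 largest rises and falls and the 6 smallest p-values in each direction among called genes with non-overlapping samples, a mean log2 CPM of at least 1 and no clone or pseudogene name, up to 4 called members of each list per direction, the 6 largest differences between regions in each sign, and label checks. Further list members are named for their role, and some genes are not reported here. Members and lists were chosen with earlier results of these data known. Alternatives were DESeq2 1.42.0, limma 3.58.1 on log2 of the normalized signal plus 1 or 0.1, other scalings, filters, samples in the fit, a sex index, a replicate block, and each library left out. Length and GC offsets and the recounts of lists under each setting were added after seeing the data.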

Additional observations from a re-analysis of the deposited data

Results flagged for a closer look

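For 22 of the genes described or ranked here, the change from day 0 to day 2 differed between ileum and duodenum in edgeR's test of the interaction, with 3 samples per region and age. Values are log2, the change in the ileum minus that in the duodenum. Of the genes with a positive value, Lrp2 had 3.09 (adjusted p = 0.0146 in edgeR), Nox4 1.75 and Mgam 1.07. Fabp6 had 4.60 and Scd2 2.39, and both fell further in the duodenum. Bcl2l15 had 4.55, Fgb 3.45, Fga 2.48, Cldn8 2.92 and the amino acid transporter gene Slc7a15 2.604. Fga, a fibrinogen chain best known from liver, went from 23.9, 27.3 and 18.5 CPM to 0.771, 1.89 and 1.45 CPM in the duodenum and from 95.6, 79.7 and 102 CPM to 25.1, 40.04 and 29.9 CPM in the ileum.

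Of the genes with a negative value, Insig1 had -1.26 (adjusted p = 0.0455 in edgeR), Fads1 -1.18, Asns -0.89 and Cirbp -0.71. The smooth muscle genes Cnn1, Des and Tpm2 had -3.92, -1.59 and -2.30. Des was at 7.34, 9.04 and 12.3 CPM at day 0 and 2.57, 3.74 and 1.90 CPM at day 2 in the ileum, and at 4.78, 4.84 and 6.83 and 4.26, 4.91 and 4.76 CPM in the duodenum. Col27a1 had -2.48, Tead2 -2.07, the noncoding RNA Miat -2.04, Hmcn2 -1.85 and Sardh -1.83.

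All 22 lost the call without duodenum day 2 sample 3. For Lrp2, Fga, Fads1 and Mgam no other of the 12 fits with a library left out lost it, while Scd2, Insig1, Cirbp and Sardh lost it in 10 of the 12. The part that the share of muscle in each sample, or the mixed sex pattern of 2 duodenum day 0 libraries, has in these differences was not tested.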

How the results depend on the processing

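No named gene that was called, as reported or in the setting itself, changed sign in any setting tried, while Amn, Apoa4, Gata4, Hmcn2, Slc51a and Slc7a15, which were not called, crossed 0 in the ileum with 1 library left out. Of the 126 named genes that were called, 68 kept the call in all 6 fits with 1 library left out, 52 in all 13 other settings and 46 in both. The count of 1665 called genes (884 rises, 781 falls) was 2634 with DESeq2 (1352 rises, 1282 falls), 541 with all 48 samples in the fit (264 and 277), 2518 with the samples of the authors' normalized tables (1376 rises) and 3136 with the 12 samples of both regions (1649 and 1487). Without a filter on low counts 1201 genes fell. Leaving out 1 library gave 401 to 3010 called genes, with 216 to 1449 rises and 185 to 1561 falls, lowest without day 2 sample 1 and highest without day 0 sample 1. The 354 genes whose change differed between the regions were 1352 with DESeq2 and 0 to 707 with 1 library left out. With all 48 samples edgeR called 0, with 1464 at an unadjusted p under 0.05. The cause of these shifts was not tested. With the replicate number as a block the counts were 522 called genes, 270 rises and 252 falls. The difference between regions, with age and number together as the block, had 1078. Same-numbered samples of the 2 ages did not deviate together (r = -0.28, -0.09 and -0.24). Same-numbered duodenum and ileum samples had r of 0.05 to 0.32, all positive, and samples of different numbers were not compared between regions. At day 0, the 2 duodenum libraries with RNA of both sexes had same-numbered ileum libraries of the female pattern. Those pairs therefore did not hold RNA of the same mice alone. Whether the other pairs came from the same mice is not settled, and the main fit did not pair the regions. How far depth limits these calls was not tested.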

Other observations

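A few called genes had a count in only 1 of the ages, and these 4 were picked out after their values were seen. Defa36, an alpha-defensin, was at 0 in all 3 day 0 samples and at 4.95, 2.63 and 2.94 CPM at day 2, at least 27.9-fold higher than the level of 3 counts in the shallowest day 0 library. Atp6v0a4, a subunit of the proton pump, was at 0.668, 1.59 and 0.928 CPM at day 0 and at 0 at day 2, at least 7.95-fold lower, and the pseudogene Gm5831 was at least 7.74-fold lower.

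The largest fitted fall of all was that of Rpl10a-ps1, a processed pseudogene of a ribosomal protein gene, at 28.9, 27.8 and 17.2 CPM at day 0 and at 0 in all 3 day 2 samples, at least 184-fold lower. Over the series it was at 0 in 16 of 48 libraries and between 6.15 and 71.8 CPM in the others, also within groups, as in the duodenum at week 2 with 42.4, 0 and 9.71 CPM. Whether reads were assigned to it or to its parent gene in a given library was not tested.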
